A study of Mus musculus with 6 samples.

Results

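The receptor chains and ligands of the gp130 (interleukin-6) cytokine family were examined in thymic epithelial cells (TECs). The family was taken as 10 genes, the receptor chains *Il6st*, *Osmr*, *Lifr*, *Il6ra*, *Il11ra1*, *Cntfr* and *Il27ra* and the ligands *Il6*, *Lif* and *Clcf1*. For each gene the probe set that carries its symbol alone was used, and the brightest on average where several exist. Of the 10 genes, 9 were measured, among 30176 genes in all, each by 1 probe set. *Il11ra1* is not analysed here, since no probe set carries that symbol alone. Probe sets were selected on their mean signal over both labels, and the genes were chosen by family membership with earlier results of these arrays known, so their tests are not independent support.

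CD45-negative EpCAM+ TECs were sorted from the thymi of mice 7 days after treatment with tamoxifen (Tm), and their RNA was hybridized to 6 mouse arrays. The 3 arrays labelled KO are from mice of the genotype socs3fl/fl act cre ER, named Δ*socs3* here, and the 3 arrays labelled WT are from socs3fl/fl mice without the Cre. Both groups carry loxP-flanked *Socs3* alleles and both received Tm, and only the KO mice carry a Tm-inducible Cre driven by the β-actin promoter in all tissues. The WT group thus controls for Tm and for the floxed allele but not for the Cre. Ages are not given in the sources used here.

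gp130, the product of *Il6st*, is the signaling chain that all these receptors share. Beside gp130, a receptor complex holds specific chains. Such a chain may lack a signaling tail, as IL-6Rα and the CNTF receptor do, or may itself signal, as the OSM and LIF receptors do. With its ligand bound, the complex activates JAK kinases and STAT3. SOCS3 is induced by STAT3 and binds a phosphorylated tyrosine of gp130, which ends the signal. In the thymus, epithelial cells are a known source of IL-6 and LIF.

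*Socs3* itself did not separate the groups. Its log2 signal was 8.54, 8.14 and 8.38 on the arrays labelled Δ*socs3* replicates 1, 2 and 3, and 8.0, 8.26 and 7.88 on the arrays labelled WT replicates 1, 2 and 3. The array labelled WT replicate 2 lay above the lowest array labelled Δ*socs3*, so the groups overlapped. The difference was 0.32 (standard error 0.16, adjusted p = 0.284 from limma, exact two-sided permutation p = 0.2, where the smallest possible with 3 arrays against 3 is 0.1). With quantile normalization it was 0.54 (adjusted p = 0.0375) and with array weights 0.46 (adjusted p = 0.0364). The measured signal was not lower on arrays labelled Δ*socs3*, but it was dim. The means of 8.36 and 8.04 lay above only 80.5% and 75.6% of the negative control probe sets, so this probe set is a weak check of the labels. Which part of the transcript the probe set covers is not given in the sources used here. The groups are therefore called by their labels, and a negative difference means a lower signal under the label Δ*socs3*. The study describes *Il6st*, *Osmr*, *Lifr*, *Aire* and *Cd80* in its text with the direction opposite to the one found here. Its gene lists give *Il7*, *Hgf*, *Pdgfc*, *Id1*, *Il23r* and *Il12rb2* with the opposite direction too. For *Il23r* its discussion differs from its list and names the gene among those that SOCS3 inhibits, which is the direction found here. The study describes *Socs3* as lower in Δ*socs3* TECs. To which genotype a direction belongs therefore cannot be told from these labels.

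The array with the label Δ*socs3* replicate 2 differed from the rest. Over genes it correlated with the other arrays at 0.962 to 0.980, and the others with each other at 0.980 to 0.996. Its poly-A spike controls averaged 6.54 (log2), against 8.16 to 8.62 on the other arrays. Its hybridization spikes averaged 9.78, against 10.98 to 11.18, and its positive controls 9.89, against 10.58 to 11.06. The SD of its signals over genes was 2.33, against 2.61 to 2.67, and a shift of the whole array leaves this spread as it is. Counts of calls are given with and without it. *Epcam*, the surface protein used for the sort, lay between 15.28 and 15.58 on all 6 arrays.

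Promoter sequence is shown for *Il6st*, since its product is the chain that the receptors share. The run is the 250 bases before its RefSeq transcript start (GRCm38.p6, chr13:112463820-112464069, plus strand), 5′ to 3′, with CG dinucleotides in capitals.
Il6st: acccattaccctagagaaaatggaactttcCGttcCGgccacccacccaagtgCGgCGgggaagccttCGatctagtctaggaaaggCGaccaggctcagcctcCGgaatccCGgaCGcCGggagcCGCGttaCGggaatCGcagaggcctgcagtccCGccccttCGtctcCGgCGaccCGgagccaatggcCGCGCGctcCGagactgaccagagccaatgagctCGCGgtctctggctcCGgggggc
It holds 26 CG dinucleotides, more than 90.4% of the 32851 promoter windows of the mouse table, whose median is 6. The same stretch before the listed start of *Osmr* holds 18, and those before the listed starts of *Lifr* hold 43 and 3. *Osmr* and *Lifr* are neighbours on chromosome 15, with no protein-coding gene between them.

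The palindrome TTCNNNGAA, the core of the sites that STAT proteins bind, was searched on windows of 300 bases (250 before and 50 after each start), where it reads the same on both strands. It was in 8.3% of all windows and in 0 of the 15 windows listed for 8 of the 10 genes. *Il27ra* and *Clcf1* are not in the table. For comparison, the *Socs3* window held 1 match, 154 bases before the start, shown here with its flanks (chr11:117969502-117969530, minus strand, capitals mark the match).
Socs3: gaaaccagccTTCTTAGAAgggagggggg
An absent match says only that these letters are not in this window.

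*Il6st*, *Osmr* and *Lifr*, the signaling chains of the LIF and OSM receptor complexes, were all lower on arrays labelled Δ*socs3*, by 2.49-fold to 4.48-fold. The specific binding chains, the IL-27 receptor chain and the ligands had smaller differences that did not pass. Of the 9 genes, 3 were lower and 0 higher in limma with the threshold of 0.05 on p adjusted over all genes, and 6 did not pass, where 1.7% of all genes passed. With dim genes left out 534 genes passed, 414 lower and 120 higher. In all, 4446 genes lay above 10.22, the signal that 95% of negative controls stay under. At an unadjusted p under 0.05, which 23.7% of all genes reached (17.9% lower and 5.86% higher), 5 were lower and 0 higher, and with the methods' t-test after adjustment none passed. Of all genes, 1.18% were lower and 0.517% higher by the same rule, or 356 and 156 genes, and this split was 355 and 367 without the shift of arrays to a common median and 1052 and 1146 with quantile normalization. The groups did not overlap in 6 of the 9 genes, beside 34.6% of all genes. In 5 of them the arrays labelled Δ*socs3* all lay below those labelled WT, which held for 26.4% of all genes, and in 1 they all lay above, as in 8.14% of all genes. In cells sorted in bulk, fewer cells of a type and less RNA per cell cannot be told apart.

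*Il6st* encodes gp130. Its log2 signal was 14.14, 13.98 and 14.16 on the arrays labelled Δ*socs3* and 15.68, 16.43 and 15.64 on those labelled WT. The 3 arrays labelled Δ*socs3* lay within 0.2 of each other, and all lay at least 1.47 below the lowest array labelled WT. The means were 14.10 ± 0.10 (SD, n = 3) and 15.92 ± 0.45 (SD, n = 3), which puts the difference at -1.82 (limma, standard error 0.23, 95% interval -2.35 to -1.29, adjusted p = 0.0292), or 3.54-fold lower.

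*Osmr* encodes the chain that pairs with gp130 in the OSM receptor and also serves IL-31. It read 12.74, 12.62 and 13.20 on the arrays labelled Δ*socs3* and 14.80, 15.48 and 14.76 on those labelled WT. The gap between the groups was 1.56, the widest among the 9 genes. The means were 12.86 ± 0.31 (SD, n = 3) and 15.02 ± 0.40 (SD, n = 3). The difference was -2.16 (standard error 0.24, 95% interval -2.74 to -1.59, adjusted p = 0.0262 from limma), or 4.48-fold lower.

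*Lifr* encodes the LIF receptor, which pairs with gp130 for LIF and, with the CNTF receptor, for CNTF and the product of *Clcf1*. Its signals were 14.88, 15.00 and 15.44 on the arrays labelled Δ*socs3* and 16.24, 16.73 and 16.32 on those labelled WT. The groups did not overlap, with a gap of 0.79. The means of 15.11 ± 0.30 (SD, n = 3) and 16.43 ± 0.26 (SD, n = 3) differed by -1.32 (standard error 0.20, 95% interval -1.79 to -0.84, adjusted p = 0.0376 from limma), or 2.49-fold.

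These 3 chains were the only ones of the 9 genes with group means above 10.22, the signal that 95% of negative controls stay under, for either label, and the other 6 were under it for both labels. The differences of the latter are thus set against signals that many negative controls reach.

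**Figure D1:**
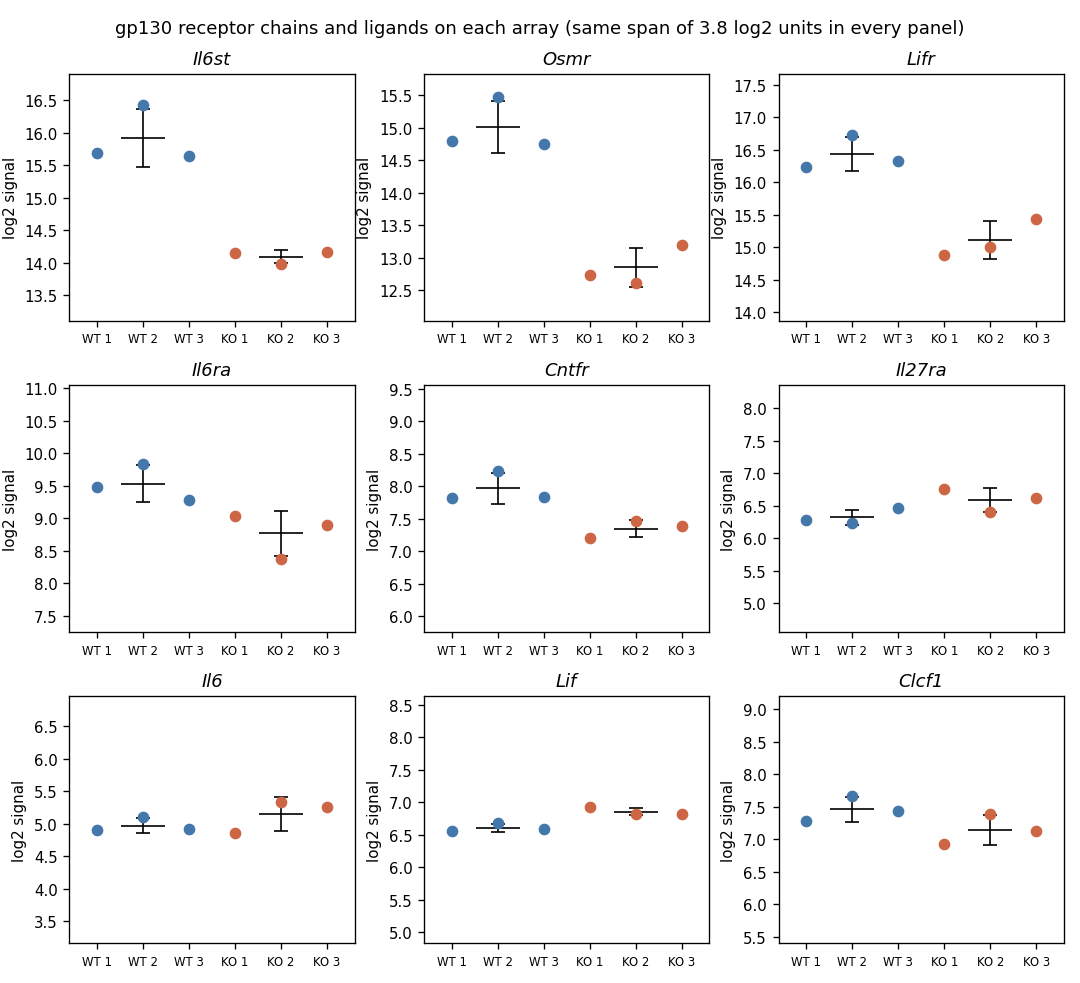
The log2 signal (y axis) of each of the 9 measured genes on each array (x axis), with the 3 arrays labelled WT in blue and the 3 labelled Δ*socs3* (KO) in orange, and with the mean and SD of each group in black. Every panel spans 3.8 log2 units around the mean of the gene, and *Il6st*, *Osmr* and *Lifr* show gaps of 1.47, 1.56 and 0.79 between the groups.

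*Il6ra* encodes the chain that binds IL-6 and passes it to gp130. It read 9.04, 8.38 and 8.90 on the arrays labelled Δ*socs3* and 9.48, 9.84 and 9.28 on those labelled WT, and the groups lay 0.24 apart. The difference, -0.76 (limma, standard error 0.22, 95% interval -1.27 to -0.24, adjusted p = 0.112), did not pass. *Cntfr* encodes the membrane-anchored chain that binds CNTF and the product of *Clcf1*. Its signals were 7.20, 7.46 and 7.38 against 7.82, 8.24 and 7.84, without overlap. The difference was -0.62 (standard error 0.16, 95% interval -1.0 to -0.24, adjusted p = 0.09 from limma). Without the array labelled Δ*socs3* replicate 2 *Cntfr* passed at -0.68 (adjusted p = 0.0391), so that 4 of the 9 genes were called in that fit, beside 11.2% of all genes, with 6.05% lower, and *Il6ra* did not, at -0.56 (adjusted p = 0.0818).

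*Il27ra*, the chain that pairs with gp130 for IL-27, went the other way without passing. It read 6.76, 6.40 and 6.62 on the arrays labelled Δ*socs3* and 6.28, 6.24 and 6.46 on those labelled WT. The groups overlapped, and the difference was 0.27 (standard error 0.14, 95% interval -0.07 to 0.60, adjusted p = 0.307 from limma).

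None of the ligands passed. *Lif* encodes the ligand of the LIF receptor. It read 6.92, 6.82 and 6.82 on the arrays labelled Δ*socs3* and 6.56, 6.68 and 6.58 on those labelled WT, which did not overlap by 0.14, with a difference of 0.25 (95% interval -0.02 to 0.52, adjusted p = 0.244 from limma). *Lif* was the only one of the 9 genes with all arrays labelled Δ*socs3* above all those labelled WT. *Il6* read 4.86, 5.34 and 5.26 against 4.90, 5.10 and 4.92. These signals overlapped and their means exceeded only 17.2% and 14.6% of the negative controls, so *Il6* was not detectable above them here. Its difference was 0.18 (95% interval -0.20 to 0.56, adjusted p = 0.554). *Clcf1*, whose product signals through the CNTF receptor, read 6.92, 7.38 and 7.12 against 7.28, 7.66 and 7.44, with overlap and a difference of -0.32 (95% interval -0.72 to 0.08, adjusted p = 0.294). These intervals do not show that the ligands were equal between the groups.

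**Figure D2:**
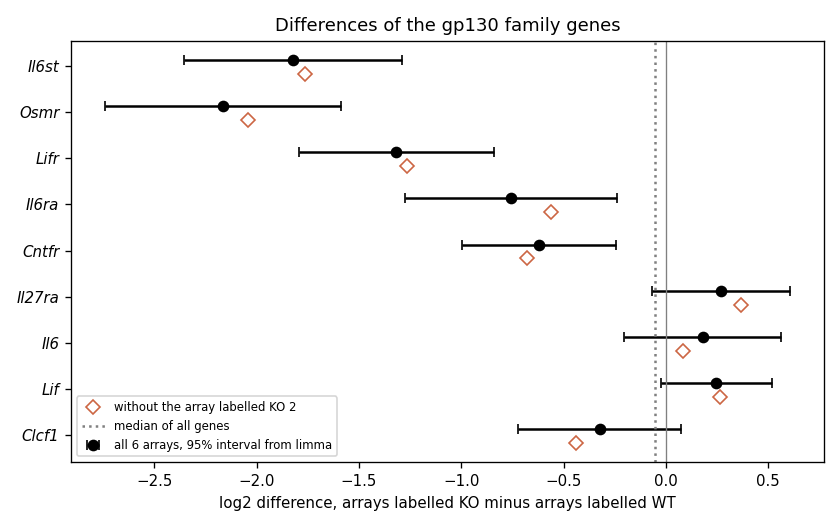
Log2 differences (x axis, label Δ*socs3*, KO, minus label WT) of the 9 genes (y axis), with 95% intervals from limma in black and the value without the array labelled Δ*socs3* replicate 2 as open diamonds. *Osmr*, *Il6st* and *Lifr* lie at -2.16, -1.82 and -1.32, and the intervals of *Il27ra*, *Il6*, *Lif* and *Clcf1* include 0.

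The calls of *Il6st*, *Osmr* and *Lifr* held without the array labelled Δ*socs3* replicate 2, at -1.76 (adjusted p = 0.00874), -2.04 (adjusted p = 0.00642) and -1.27 (adjusted p = 0.0163). They were lost when any 1 of the other 5 arrays was left out. With Δ*socs3* replicate 1, Δ*socs3* replicate 3, WT replicate 1, WT replicate 2 or WT replicate 3 left out, the adjusted p was 0.0831 to 0.114 for *Il6st*, 0.0615 to 0.114 for *Osmr* and 0.0775 to 0.163 for *Lifr*. The differences moved less, and over the 6 omissions they were -1.97 to -1.57 for *Il6st*, -2.34 to -1.93 for *Osmr* and -1.49 to -1.17 for *Lifr*.

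The sizes of the differences of the 3 signaling chains were also set against each other. The difference between the signals of 2 genes on the same array does not depend on a shift of whole arrays, so 3 such pairs were compared, which were chosen after the values had been seen. *Osmr* minus *Lifr* was -2.13, -2.39 and -2.24 on the arrays labelled Δ*socs3* and -1.43, -1.24 and -1.55 on those labelled WT. The groups did not overlap, and their means differed by -0.85. *Osmr* minus *Il6st* was -1.40, -1.36 and -0.96 against -0.88, -0.95 and -0.87, where the closest arrays lay 0.01 apart. *Lifr* minus *Il6st* was 0.73, 1.03 and 1.28 against 0.55, 0.29 and 0.68. Each of the 3 pairs had an exact two-sided permutation p of 0.1, the smallest that 3 arrays against 3 allow, and an adjusted p of 0.1 over the pairs, so none can pass. On the arrays labelled WT the SD of *Osmr* minus *Il6st* was 0.04, against 0.40 for *Osmr* and 0.45 for *Il6st* alone. On the arrays labelled Δ*socs3* that SD was 0.24, against 0.31 for *Osmr* and 0.10 for *Il6st* alone.

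**Figure D3:**
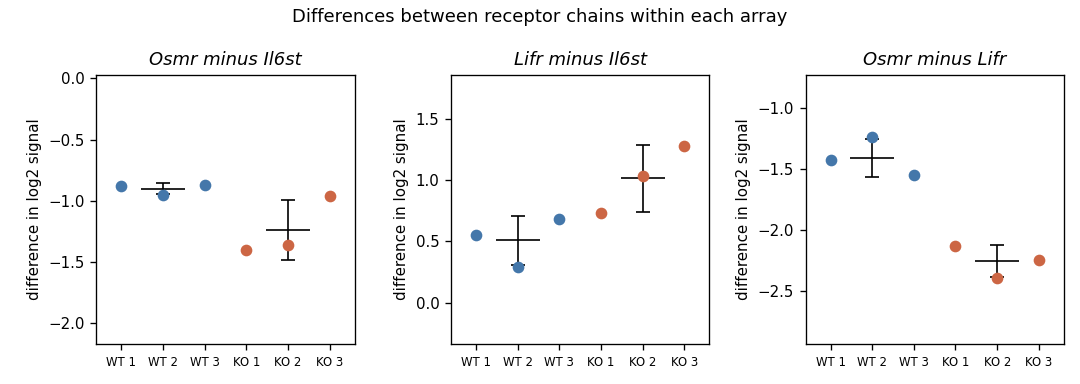
Difference in log2 signal (y axis) between receptor chains on the same array (x axis), with arrays labelled WT in blue, arrays labelled Δ*socs3* (KO) in orange and the mean and SD of each group in black. *Osmr* minus *Lifr* averaged -2.25 on arrays labelled Δ*socs3* and -1.41 on arrays labelled WT.

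Within the group labelled WT, replicate 2 gave the highest signal for 8 of the 9 genes, all but *Il27ra*, while it was the highest of that group in 47.2% of all genes. For *Il6st* it lay 0.75 above the next array. Across all 6 arrays, the genes whose pattern was closest to that of *Il6st*, by the root mean square difference of log2 signals after the mean of each gene was subtracted, were *Il7* at 0.09, *Pdgfc* at 0.10, *Nrbp2* at 0.10, *Id1* at 0.11 and *Sulf1* at 0.11. *Il7* encodes a cytokine needed by thymocytes, *Pdgfc* a growth factor, *Id1* an inhibitor of DNA-binding transcription factors and *Sulf1* an enzyme that trims heparan sulfate. Each of these 5 had its highest signal on the array labelled WT replicate 2, which follows from their choice by closeness to *Il6st*. *Osmr* ranked 48th of 30175 genes in this measure at 0.22, *Lifr* 170th at 0.32 and *Il6ra* 1226th at 0.56. With 6 arrays that share their group and their scaling, this is a description.

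The rest of the family, with *Il23r*, a receptor chain of another cytokine, added, was measured with a list chosen with earlier results of these data known. Of 13 further ligands and chains, 10 were measured, and after adjustment 0 passed in limma and 0 with the methods' t-test. At an unadjusted p under 0.05 (limma), 1 was lower and 3 higher, beside 17.9% and 5.86% of all genes. The median difference of the list was 0.03, against -0.62 for the 9 genes and -0.05 for all genes. A group mean above 10.22 was found for 1 of the 10, *Il23r*. With dim genes left out the median of the genes kept was -0.34, so brighter genes as a whole read lower under the label Δ*socs3*. The list medians below are to be read beside both values. *Ebi3*, the subunit that IL-27 shares with IL-35, read 7.02, 6.62 and 7.16 on the arrays labelled Δ*socs3* and 6.42, 6.26 and 6.12 on those labelled WT, without overlap, and differed by 0.66 (adjusted p = 0.0917 from limma). *Il12a*, the p35 subunit of IL-12, differed by 0.82 (adjusted p = 0.114) and *Il23r*, the IL-23 receptor chain, by 1.19 (adjusted p = 0.0842). The means of *Ebi3* and *Il12a* lay under 10.22 in both groups. *Ctf1*, which encodes the ligand cardiotrophin, differed by -0.37 (adjusted p = 0.134). With Δ*socs3* replicate 2 left out, 3 of the list were higher and 0 lower, beside 5.15% and 6.05% of all genes. Receptors of the same structural type for other cytokines held no call either. Of *Lepr*, *Csf3r*, *Il12rb1*, *Il12rb2* and *Il23r*, 0 passed and, before adjustment, 2 reached a p under 0.05 and were higher, *Il23r* and *Il12rb2*, the latter by 1.07 (adjusted p = 0.103). These 2 were also the genes of this list that were higher without replicate 2. *Il23r* is thus counted in both lists, and it was the only 1 of these 5 receptors with a group mean above 10.22. A list on the shedding and transport of these receptors, with the sheddases *Adam10* and *Adam17*, gave 0 calls in 6 genes and a median of -0.31. Its 1 gene with an unadjusted p under 0.05 was *Ctf1*, a ligand that this list also holds, and *Erap1*, a peptidase tied to receptor shedding, differed by -0.57 (adjusted p = 0.235).

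Downstream of gp130, 15 of 19 listed kinases, STATs and adaptors were measured, of which 2 were lower, 0 higher and 13 did not pass. Of all genes, 1.18% were lower and 0.517% higher. *Gab1* encodes a docking protein that carries the signal of gp130 to the MAP kinases. It read 11.16, 10.62 and 11.22 on the arrays labelled Δ*socs3* and 12.20, 12.84 and 12.22 on those labelled WT, and differed by -1.42 (standard error 0.24, adjusted p = 0.0442 from limma). *Pik3r1*, a regulatory subunit of PI3 kinase, differed by -1.11 (standard error 0.20, adjusted p = 0.0478). *Yap1*, a transcriptional coactivator, and the adaptor *Shc1* did not pass at -1.09 (adjusted p = 0.0501) and -0.86 (adjusted p = 0.103). The median of the list was -0.53, beside -0.34 for the genes kept when dim ones were left out. A group mean above 10.22 was found for 11 of the 15. *Stat3* at -0.38 (standard error 0.15, adjusted p = 0.186 from limma) and *Jak1* at -0.57 (standard error 0.18, adjusted p = 0.127) were among the 13 that did not pass. At an unadjusted p under 0.05, 9 of the 15 were lower and 0 higher, beside 17.9% and 5.86% of all genes. The difference was below 0 in 14 of the 15. With Δ*socs3* replicate 2 left out, 3 of the list were lower and 1 higher, beside 6.05% and 5.15% of all genes. Of 12 measured inhibitors, among them the SOCS genes with *Socs3* and the PIAS genes, 0 passed, with 7 lower at an unadjusted p under 0.05 beside 17.9% of all genes, 0 with the methods' t-test after adjustment, and a median of -0.42. *Socs7* differed by -0.83 (adjusted p = 0.0797), *Socs2* by -0.49, *Socs5* by -0.41 and *Pias1* by -0.62. Of the inhibitors, 0 passed also without Δ*socs3* replicate 2, and 3 of the 12 had a group mean above 10.22.

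Among 28 measured targets of STAT3 (the 9 genes and *Socs3* not counted), 5 were lower, 1 was higher and 22 did not pass after adjustment. Of all genes, 1.18% were lower and 0.517% higher. At an unadjusted p under 0.05, 13 of the 28 were lower and 3 higher, beside 17.9% and 5.86% of all genes. The median of the list was -0.45, beside -0.34 for the genes kept when dim ones were left out. A group mean above 10.22 was found for 16 of the 28. When Δ*socs3* replicate 2 was left out, 10 were lower and 3 higher, where 6.05% of all genes were lower and 5.15% higher. *Serpina3n*, a secreted protease inhibitor of the acute phase, had the largest measured difference of the list. It read 8.96, 8.78 and 9.85 on the arrays labelled Δ*socs3* and 14.28, 15.18 and 14.48 on those labelled WT. Its difference was -5.45 (limma, standard error 0.34, adjusted p = 0.00947). *Hgf*, a growth factor for epithelium, differed by -1.98 (adjusted p = 0.0364), *Lcn2*, an iron-binding antibacterial protein, by -1.73 (adjusted p = 0.0306), *Lbp*, which binds lipopolysaccharide, by -1.44 (adjusted p = 0.0272) and *Fos* by -1.1 (adjusted p = 0.0256). *Fos* is also an immediate early gene. The means of *Serpina3n*, *Hgf* and *Lcn2* on arrays labelled Δ*socs3*, 9.20, 8.49 and 9.02, lay under the 10.22 that 95% of negative controls stay below, so the sizes of their differences are set against a signal not above background. *Reg3g*, an antibacterial lectin, was the 1 that was higher, at 1.30 (standard error 0.23, adjusted p = 0.0478). Its signals were 14.62, 14.44 and 15.16 on the arrays labelled Δ*socs3* and 13.40, 13.16 and 13.74 on those labelled WT. The call of *Serpina3n* was lost without Δ*socs3* replicate 1, WT replicate 1 or WT replicate 3, and the calls of *Hgf*, *Lcn2*, *Lbp*, *Fos*, *Reg3g*, *Gab1* and *Pik3r1* were lost without any 1 of the 5 arrays other than Δ*socs3* replicate 2.

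**Figure D4:**
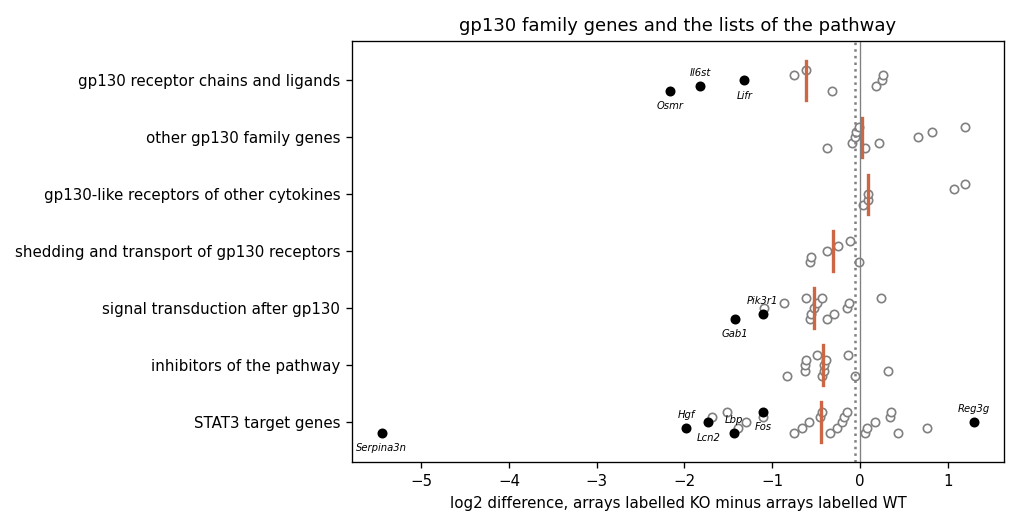
Log2 differences (x axis, label Δ*socs3*, KO, minus label WT) of the 9 genes and of the genes of each list of the pathway (y axis, points spread vertically for legibility). Filled points with names pass at an adjusted p under 0.05, open points do not, orange bars are list medians and the dotted line is the median of all genes at -0.05. With dim genes left out the median of the genes kept was -0.34.

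Markers of other cells and of TEC types were read on the same arrays. Of 14 TEC markers, 2 were higher and 0 lower, beside 0.517% and 1.18% of all genes. These 2 were *Aire* at 1.76 (adjusted p = 0.0386 from limma) and *Cd80* at 1.30 (adjusted p = 0.0429), both genes of mature medullary TECs. At an unadjusted p under 0.05, 3 of the 14 were higher and 7 lower, beside 5.86% and 17.9% of all genes. The median was -0.51, beside -0.34 for the genes kept when dim ones were left out. The lowest difference was that of *Psmb11*, a proteasome subunit of cortical TECs, at -1.52 (adjusted p = 0.0985), which was named after its value was seen. The log2 of the summed signal of these markers was 19.73 to 20.02 on the arrays labelled Δ*socs3* and 20.24 to 20.61 on those labelled WT. Of 12 markers of myeloid and dendritic cells, 3 were higher, beside 0.517% of all genes. They were *Lyz2* at 1.83, *Mrc1* at 1.26 and *C1qb* at 0.69. The summed signals of the list were 14.27 to 14.98 against 12.73 to 13.32. Most of that sum is *Lyz2* (means 14.6 and 12.8), the only 1 of the 12 with a group mean above 10.22. *Cd68* was the 1 marker of the list with a difference below 0, at -0.3 (adjusted p = 0.444 from limma). *Mrc1* (means 8.48 and 7.22) and *C1qb* (means 7.55 and 6.86) lay within the range of the negative controls in both groups. None of 9 fibroblast and pericyte, 7 endothelial, 8 thymocyte or 4 B cell markers passed. At an unadjusted p under 0.05, 2, 1, 1 and 1 of them were higher, beside 5.86% of all genes. Summed signals of the fibroblast and pericyte list were 15.22 to 15.69 against 14.68 to 15.03. Most of that sum is *Rgs5*, with means of 15.26 and 14.44, which did not pass at 0.82 (adjusted p = 0.0614 from limma). Of the 9 genes of that list, 3 had a difference below 0. In 1 of the 9 the groups did not overlap, beside 34.6% of all genes. For the endothelial list the sums were 9.29 to 9.62 against 9.30 to 9.46. Those of the thymocyte list were 11.22 to 12.83 against 11.50 to 12.29 and those of the B cell list 8.75 to 8.96 against 8.55 to 8.85. The defining endothelial marker *Pecam1* lay below the median of the negative controls on all 6 arrays. With Δ*socs3* replicate 2 left out, 6.05% of all genes were lower and 5.15% higher. In that fit 1 TEC marker, the keratin gene *Krt14*, was lower and 3, *Aire*, *Cd80* and *Cldn4*, were higher. Of the other lists, 6 myeloid, 3 fibroblast and pericyte, 1 endothelial, 0 thymocyte and 0 B cell markers were higher. The calls of *Aire*, *Cd80*, *Lyz2*, *Mrc1* and *C1qb* were lost without any 1 of the 5 arrays other than Δ*socs3* replicate 2. The part of these cells and of the TEC types in the receptor results was not tested.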

How the data were processed

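RNA of sorted TECs was measured on 6 whole-transcriptome mouse arrays, 3 per label. Per the labels and methods, the authors scaled signals with MAS5, took log2 and applied median normalization per chip and per gene. The deposited log2 values were not centred per gene and array medians ran from 6.18 to 6.53, so which of these steps the table holds is not known. The genome build is not given in the sources used here. Of 72688 probe sets, 30638 had 1 gene symbol, 2176 several and 39874 none. Each array was shifted to a common median over 30176 genes, with no filter. Groups were compared by lmFit and eBayes (limma 3.58.1, R 4.3.3, 4 residual degrees of freedom) with Benjamini-Hochberg adjustment over all genes and a threshold of 0.05. The procedure was tested on simulated data. With 3 arrays per group the number of arrays limits precision, and p-values measure the spread between these arrays. Members and lists were chosen with earlier results of these data known. The text names all members and *Socs3*, the genes of each list that passed and up to 4 more with the smallest p, up to 3 markers with the highest mean or the smallest p, and the 5 genes nearest to *Il6st*. *Stat3*, *Jak1*, *Csf3r*, the sheddases, *Epcam*, *Psmb11*, *Krt14* and *Cldn4* were named outside this rule. Not every gene that the rule admits is named. Whether replicate numbers pair the arrays is not known, and the main fit did not use them. The alternatives were other scalings, a filter on dim genes, mean probe sets, another variance model, array weights, the methods' t-test, a replicate block and leaving out each array. The methods' t-test was adjusted over all genes, without the authors' exclusion of genes below noise or their cut on fold change. The Student-Newman-Keuls test was not run.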

Additional observations from a re-analysis of the deposited data

How the results depend on the processing

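No difference of the 9 genes changed sign under the alternatives in which it had a value, which were all 14 for *Il6st*, *Osmr* and *Lifr*, while the other 6 genes have none without dim genes. The 3 lower calls were 3 without the shift, with quantile normalization, without dim genes, with mean probe sets and with an intensity trend, 4 with array weights, 0 with the methods' t-test and 0 to 4 when 1 array was left out. No member was called higher in any of them. All genes called numbered 512, against 2198 with quantile normalization, 4543 with array weights (whose estimation stopped before convergence), 4 with the methods' t-test and 0 to 3381 when 1 array was left out, where 3381 is without Δ*socs3* replicate 2. The cause was not tested.

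With the replicate block 0 of the 9 genes and 29 of all genes were called, and the adjusted p (limma) was 0.074 for *Il6st* and *Osmr* and 0.096 for *Lifr*. Deviations of arrays that share a number correlated at 0.07, -0.13 and -0.18, and those of arrays with different numbers at -0.26 to 0.26. With 3 arrays per group, these values cannot tell whether the numbers pair the arrays. The median difference of all genes was -0.05, and 0.08 without the shift. With dim genes left out it was -0.34. *Il6ra*, *Cntfr*, *Il27ra*, *Il6*, *Lif* and *Clcf1* were under the signal that 95% of negative controls stay below, which limits what their differences show.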
